A study of Mus musculus with 6 samples.

Results

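The 6 genes described here encode metabotropic glutamate receptors: Grm5 of group I, Grm2 and Grm3 of group II, and Grm4, Grm7 and Grm8 of group III. They were taken by name from the 32371 genes of the deposited count table, and all 6 were among the 18138 genes that passed the filter on low counts. The other genes of the family were not members.

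The table held 6 RNA-Seq libraries of CD90.2-positive cells sorted from dissociated retinas of adult C57BL/6J mice of both sexes. All mice received an intravitreal AAV2 vector and, 2 weeks later, an optic nerve crush (ONC), and cells were collected 3 days after the ONC, so that every library is from injured and transduced eyes. The control group received AAV2-GFP (3 libraries), and the other group received AAV2-Ezh2-Y726D (3 libraries), which encodes a form of the histone methyltransferase Ezh2 without catalytic activity. The promoter of the vectors, and whether a library holds cells of several mice, are not given in the sources used here, so P values measure the spread between libraries, which may be partly technical. The comparison asks how expression of the mutant changes the transcriptome of retinal ganglion cells (RGCs) after injury.

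Metabotropic glutamate receptors are G protein-coupled receptors that tune synaptic transmission rather than carry it. Group I receptors couple to Gq and phospholipase C and are mostly postsynaptic, whereas group II and III receptors couple to Gi/o, lower cyclic AMP and, at many synapses, act presynaptically to reduce transmitter release. In the retina the best known use of the family is in ON bipolar cells, whose dendrites sense photoreceptor glutamate through the group III receptor mGluR6, the product of Grm6. Grm2 is a known marker of starburst amacrine cells, and Grm4, Grm7 and Grm8 are found at contacts of the inner plexiform layer, where bipolar cells, amacrine cells and RGCs meet.

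All 3 group III members were higher after Ezh2-Y726D overexpression, and no member was lower. Grm4 and Grm8 rose by 1.6-fold and 1.56-fold, and Grm7 by 1.23-fold. Grm2, Grm3 and Grm5 did not pass an adjusted P of 0.05 in the test used, edgeR's quasi-likelihood test. Of all genes tested, 13.9% were higher and 13.6% lower at this threshold, against 3 and 0 of the 6 members. At an unadjusted P under 0.05, edgeR gave 4 members higher and 0 lower, beside 18.4% and 17.8% of all genes. DESeq2 called 3 members higher and 0 lower at its adjusted P under 0.05. The study's threshold for differentially expressed genes (DEGs), which also asks for a fold change over 1.5, was met by Grm4 and Grm8 and by 2.52% of all genes in the upward direction. The median log2 fold change of the 6 members was 0.30, and that of all genes tested was 0.00.

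The libraries differed in depth. Total counts ran from 9333244 to 23782520, and the rRNA gene CT010467.1 took 50.9% and 52.2% of the counts of GFP replicates 2 and 3 against 2.55% to 16.1% of the other 4, so that these GFP libraries had the fewest reads on the members. Levels are given below as CPM, the reads on a gene scaled to a fixed library size that edgeR's TMM factors adjust. The overexpressed gene checked the labels: the 3 GFP libraries held 22.7, 23.9 and 26.4 CPM of Ezh2 and the 3 Ezh2-Y726D libraries held 65.2, 65.6 and 65.2 CPM, in which reads of the vector and of the endogenous gene were not separated. Directions and calls are under TMM scaling and are relative to the other genes. Library totals, which differ with the rRNA gene, turn small decreases into increases. Scaled by library totals, 0 members were higher at edgeR's adjusted P under 0.05.

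Grm8 (ENSMUSG00000024211) lies on the minus strand of chromosome 6, from 27275119 to 28135178 on GRCm38. It encodes mGluR8, a presynaptic receptor with high affinity for glutamate. Grm8 had 785, 220 and 147 reads in GFP replicates 1, 2 and 3, which is 27.5, 28.4 and 24.4 CPM. In the Ezh2-Y726D replicates it had 1115, 870 and 1248 reads, or 41.9, 42.6 and 42.3 CPM. Every Ezh2-Y726D library lay above every GFP library, and the 3 Ezh2-Y726D values were close to each other. The GFP mean of 26.8 ± 2.11 CPM compared with 42.3 ± 0.366 CPM (SD, 3 libraries per group). This is a log2 fold change of 0.64, with a standard error of 0.0621 and, from the quasi-likelihood test of edgeR, an adjusted P (Benjamini-Hochberg) of 3.44e-09.

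Grm4 (ENSMUSG00000063239, minus strand of chromosome 17, 27422387 to 27521403) encodes mGluR4, which restrains release at glutamatergic and GABAergic terminals. It was measured with fewer reads than Grm8, 282, 68 and 49 in the GFP libraries and 424, 292 and 430 in the Ezh2-Y726D libraries. These correspond to 9.89, 8.77 and 8.13 CPM in GFP and to 15.9, 14.3 and 14.6 CPM after Ezh2-Y726D overexpression. The groups did not overlap. The log2 fold change was 0.68 (standard error 0.0968, edgeR's adjusted P = 2.47e-06), and its 95% interval of 0.48 to 0.88 held that of Grm8 (0.51 to 0.77). Both intervals included the fold change of 1.5 that defines a DEG, since they correspond to 1.4-fold to 1.84-fold for Grm4 and 1.43-fold to 1.7-fold for Grm8.

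Grm7 (ENSMUSG00000056755, plus strand of chromosome 6, 110645581 to 111567230) encodes mGluR7, a low-affinity receptor of the presynaptic active zone. It was at 49.1, 50.3 and 43.8 CPM in GFP and at 55.4, 63.8 and 58.8 CPM after Ezh2-Y726D overexpression, from 264 to 1734 reads per library. The groups did not overlap, although the gap between the highest GFP library and the lowest Ezh2-Y726D library was smaller than the range of either group. The log2 fold change was 0.30 (standard error 0.0601, edgeR's adjusted P = 0.000331), with a 95% interval of 0.17 to 0.42 that ended below the lower bounds of Grm4 and Grm8.

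**Figure D1:**
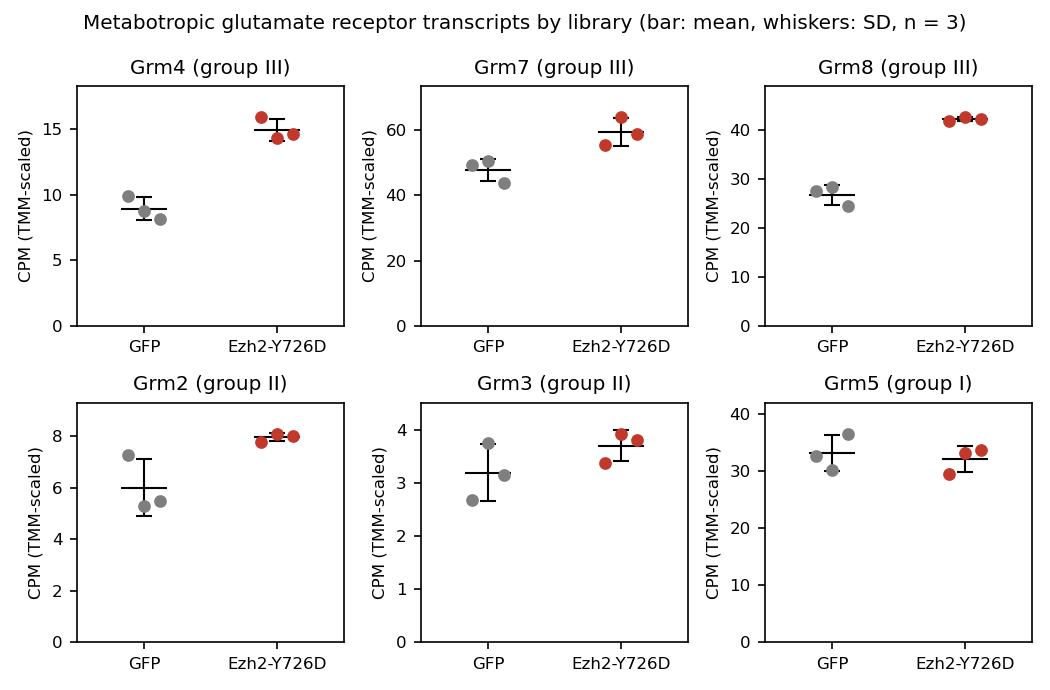
TMM-scaled CPM of the 6 receptor genes in each library (points, 3 GFP and 3 Ezh2-Y726D), with group means (bars) and SD (whiskers); each panel has its own axis from 0. The red points lie above all grey points for Grm4, Grm7, Grm8 and Grm2, and the groups overlap for Grm3 and Grm5.

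The sequence before the start of the gene was looked at because Ezh2 belongs to the Polycomb repressive complex 2, which in mammals is found mainly at promoters rich in CpG dinucleotides. RefSeq's promoter table (GRCm38.p6) held 4 of the 6 members, and Grm4 and Grm5 were not among them. The bases from 250 to 51 before the most upstream RefSeq start of Grm8 (chr6:28135197-28135396, minus strand), Grm7 (chr6:110645262-110645461, plus strand), Grm2 (chr9:106656160-106656359, minus strand) and Grm3 (chr5:9725403-9725602, minus strand) are shown 5′ to 3′ on the strand of the gene, with every CpG (the letters CG, the same on both strands) in capitals, to compare the genes that were higher with those that did not pass the test.
Grm8: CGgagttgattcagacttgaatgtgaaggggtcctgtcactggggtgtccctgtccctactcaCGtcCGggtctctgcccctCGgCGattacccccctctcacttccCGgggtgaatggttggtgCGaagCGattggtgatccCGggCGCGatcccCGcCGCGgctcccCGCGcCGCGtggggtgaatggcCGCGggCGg
Grm7: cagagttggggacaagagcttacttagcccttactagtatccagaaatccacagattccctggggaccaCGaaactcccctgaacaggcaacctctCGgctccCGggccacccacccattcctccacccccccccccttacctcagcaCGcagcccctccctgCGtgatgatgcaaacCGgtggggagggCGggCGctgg
Grm2: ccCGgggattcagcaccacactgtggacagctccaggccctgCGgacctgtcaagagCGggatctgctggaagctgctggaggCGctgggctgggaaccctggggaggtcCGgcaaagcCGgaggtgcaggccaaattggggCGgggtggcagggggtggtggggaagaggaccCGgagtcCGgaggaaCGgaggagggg
Grm3: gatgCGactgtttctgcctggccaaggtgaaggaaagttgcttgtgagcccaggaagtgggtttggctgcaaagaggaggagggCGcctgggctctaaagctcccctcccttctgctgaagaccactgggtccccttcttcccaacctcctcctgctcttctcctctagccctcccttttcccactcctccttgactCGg

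These 200 bases held 21 CpGs in Grm8, 10 in Grm2, 8 in Grm7 and 3 in Grm3, with a GC content of 67.0%, 69.0%, 62.5% and 58.5%. Among 27025 windows of the same length and position, 1 for each gene of the table, 88.6% held a CpG, the median was 4, and 8.0% held at least as many as Grm8, 29.3% as Grm2, 35.1% as Grm7 and 63.1% as Grm3. Grm2, which did not pass the test, held more CpGs than Grm7, which was higher, so that the numbers did not separate these genes by their calls. The windows are a description of the sequence. No chromatin measurement was analysed here.

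Grm2 (ENSMUSG00000023192, minus strand of chromosome 9, 106643095 to 106656082) and Grm3 (ENSMUSG00000003974, minus strand of chromosome 5, 9485541 to 9725170) encode mGluR2 and mGluR3, the Gi/o-coupled group II receptors, and mGluR3 is also a receptor of astrocytes. Grm2 was at 7.26, 5.29 and 5.47 CPM in GFP and at 7.78, 8.09 and 8 CPM after Ezh2-Y726D overexpression. Each Ezh2-Y726D library was above each GFP library, but GFP replicate 1 was closer to the Ezh2-Y726D libraries than to the other GFP libraries. In edgeR the log2 fold change was 0.29 (95% interval 0.03 to 0.54, adjusted P = 0.0866, unadjusted P = 0.0275). Without GFP replicate 1 the log2 fold change was 0.56 and edgeR's adjusted P was 0.0156. With the counts of all libraries thinned to the shallowest, it was 0.54 and 0.0312. GFP replicate 1 holds most of the GFP reads on Grm2, with 207 against 41 and 33. Of the exonic bases of Grm2, 9.60% are shared with Gm28111 on the opposite strand. Gm28111 is not among the counted genes, and the strand setting of the counting is not given in the sources used here. How far the shared bases affect the count of Grm2 is therefore not known. Grm7 shares 2.21% of its exonic bases with Gm20387 on the opposite strand, which had 3 to 30 reads per library. Grm8 shares 0.97% of its exonic bases with Mir592 on its own strand.

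Grm3 had the fewest reads of the 6 members, 76, 29 and 19 in GFP and 90, 80 and 112 after Ezh2-Y726D overexpression. Its levels of 2.67, 3.74 and 3.15 CPM in GFP and 3.38, 3.92 and 3.80 CPM after Ezh2-Y726D overlapped. The log2 fold change was 0.31 (edgeR's adjusted P = 0.218), with a 95% interval from -0.05 to 0.67 that includes both no difference and the change of Grm8. Without GFP replicate 1, which held 76 of the GFP reads against 29 and 19, the log2 fold change was 0.08, and it was 0.01 with thinned counts. A difference in Grm3 of the size seen in Grm8 was therefore not separable from no difference at this depth.

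Grm5 (ENSMUSG00000049583, plus strand of chromosome 7, 87584168 to 88134907) encodes mGluR5, a postsynaptic receptor that releases calcium from internal stores and binds Homer scaffolds. It was at 32.7, 30.2 and 36.5 CPM in GFP and at 29.5, 33.2 and 33.6 CPM after Ezh2-Y726D overexpression, from 220 to 991 reads per library. The groups overlapped. The log2 fold change was -0.03 (standard error 0.0683, edgeR's adjusted P = 0.782), and the 95% interval of -0.17 to 0.11 (0.89-fold to 1.08-fold) does not reach the changes of the 3 group III members. In all, 4 of the 6 members had every Ezh2-Y726D library above every GFP library, as had 19.7% of all genes tested.

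**Figure D2:**
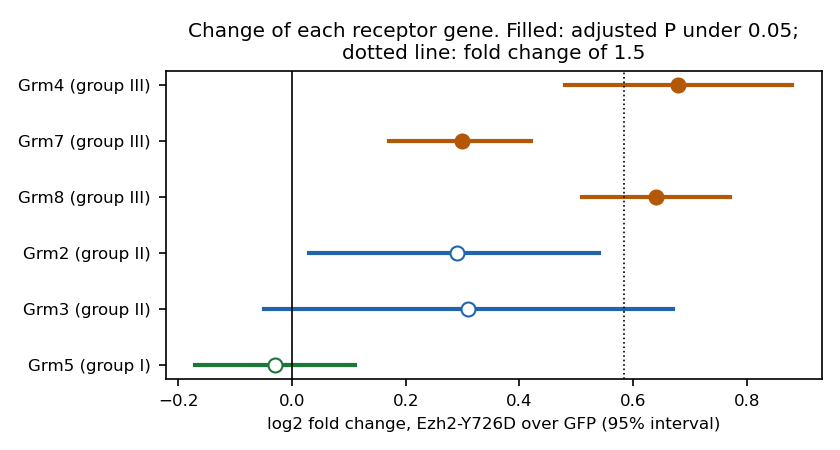
Log2 fold change of each receptor gene, Ezh2-Y726D over GFP, with the 95% interval from edgeR's quasi-likelihood fit (3 libraries per group). The intervals of the group III genes Grm4, Grm7 and Grm8 lie above 0, that of Grm2 does too although its adjusted P was 0.0866, that of Grm5 spans 0 from -0.17 to 0.11, that of Grm3 spans 0 from -0.05 to 0.67, and those of Grm3, Grm4 and Grm8 cross the dotted line at a fold change of 1.5.

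Ratios of reads between members of the same library do not depend on how the libraries are scaled. The ratio of Grm5 to Grm8 was 1.19, 1.06 and 1.5 in GFP and 0.705, 0.779 and 0.794 after Ezh2-Y726D overexpression, so that Grm5 had more reads than Grm8 in every GFP library and fewer in every Ezh2-Y726D library. Within group III, the ratio of Grm7 to Grm8 was 1.78, 1.77 and 1.80 in GFP and fell to 1.32, 1.5 and 1.39, without overlap. The ratio of Grm4 to Grm7 went from 0.201, 0.174 and 0.186 to 0.288, 0.224 and 0.248, also without overlap. The ratio of Grm4 to Grm8 was 0.309 to 0.359 in GFP and 0.336 to 0.380 after Ezh2-Y726D, and these ranges overlapped (difference of 0.08 on the log2 scale). Of the 15 pairs of members, which share genes, 8 had ratios that did not overlap between the groups in either direction, as had 37.6% of all pairs among the 18017 tested genes with a read in every library. For 3 libraries against 3 the smallest P of the two-sided exact permutation test is 0.1, and each of these 8 pairs reached it (0.188 with Benjamini-Hochberg adjustment over the 15 pairs), so that no pair could pass 0.05.

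Levels of different genes were compared per kilobase (kb) of exon, from the union of exons in GENCODE vM21. Grm7 was the most abundant member, at 8.11 ± 0.59 CPM per kb in GFP and 10.1 ± 0.719 CPM per kb after Ezh2-Y726D overexpression (SD, n = 3 libraries each). Its mean over all libraries was above that of 75.7% of the genes tested, whereas Grm5 and Grm8 lay near the middle (46.0% and 48.3%) and Grm4, Grm2 and Grm3 lower (35.8%, 29.8% and 25.8%). In GFP, Grm5 followed Grm7 with 3.23 ± 0.31 CPM per kb, then Grm8 with 2.7 ± 0.213, Grm4 with 1.49 ± 0.149, Grm2 with 1.23 ± 0.223 and Grm3 with 1.04 ± 0.176 (SD, n = 3 libraries). Of the neighbours in this order, Grm4 and Grm2 overlapped between libraries, as did Grm2 and Grm3. After Ezh2-Y726D overexpression the order was Grm7, Grm8 (4.27 ± 0.0369), Grm5 (3.13 ± 0.219), Grm4 (2.50 ± 0.146), Grm2 (1.63 ± 0.0322) and Grm3 (1.21 ± 0.0924), and no neighbours overlapped.

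**Figure D3:**
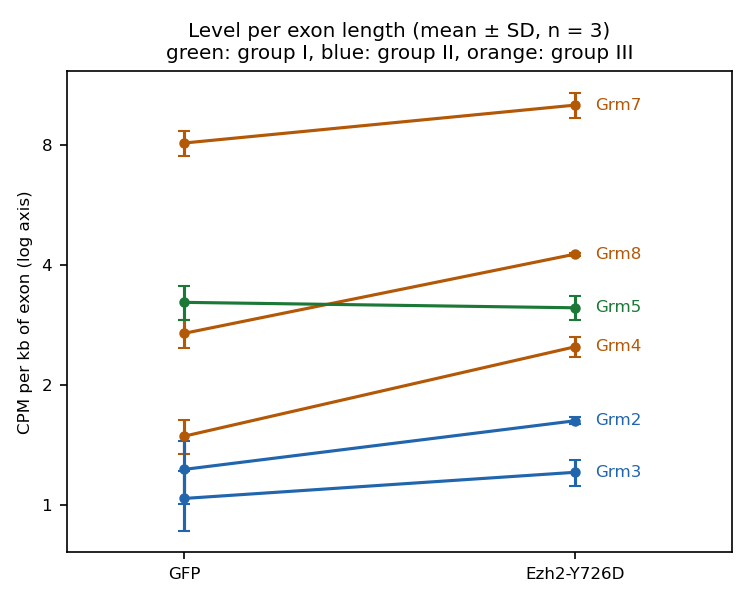
Mean level per kb of exon (log axis, whiskers SD, n = 3 libraries) of the 6 receptor genes in GFP and after Ezh2-Y726D overexpression. The lines of Grm8 and Grm5 cross, from 2.7 and 3.23 CPM per kb in GFP to 4.27 and 3.13 after Ezh2-Y726D, while Grm7 stays highest and Grm3 lowest.

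Summed per kb of exon, the 3 group III members made up 69.7%, 71.0% and 66.3% of the level of the 6 members in the GFP libraries and 74.5%, 73.9% and 73.1% in the Ezh2-Y726D libraries. The share of Grm5 was 17.4%, 16.2% and 21.0% in GFP and 13.2%, 13.7% and 14.3% after Ezh2-Y726D overexpression. The share of Grm2 and Grm3 together was 12.7% to 12.9% in GFP and 12.3% to 12.6% after Ezh2-Y726D. These shares sum to the whole, so that a higher level of group III alone lowers the other shares. The summed level of Grm2 and Grm3 was 2.36, 2.31 and 2.15 CPM per kb in GFP and 2.7, 2.94 and 2.88 CPM per kb after Ezh2-Y726D, although neither gene passed the test, and the level of Grm5 overlapped between the groups. The summed level of the 6 members was 17.0 to 18.3 CPM per kb in GFP and 21.9 to 23.7 CPM per kb after Ezh2-Y726D.

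Group III of the family did not move as a whole, because Grm6, the receptor of ON bipolar cells, was lower, with means of 59.4 ± 2.73 CPM for GFP and 47.4 ± 2.26 CPM for Ezh2-Y726D (SD, 3 libraries per group), with a log2 fold change of -0.34 (edgeR's adjusted P = 2.06e-05). Scaled by library totals, which moved the median of all genes to 0.49, the log2 fold change of Grm6 was 0.16, so that its fall is relative to the other genes. Grm6 was lower together with the 5 bipolar cell markers reported here (Vsx1, Trpm1, Cabp5, Pcp2 and Gng13). The summed level of these markers was 506 to 534 CPM in GFP and 372 to 391 CPM after Ezh2-Y726D overexpression. The median log2 fold change of these markers was -0.45, and 0.06 with library totals. Prkca, a marker of rod bipolar cells that is also expressed elsewhere and is listed here with the Gq arm, went the other way, with a log2 fold change of 0.34.

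Markers of other retinal cells moved along with the group III members. All 6 amacrine cell markers were higher, among them Gad1 and Gad2, the enzymes of GABA synthesis, Slc32a1, the vesicular transporter of GABA and glycine, and the transcription factors Tfap2a and Tfap2b. Their summed level was 631 to 705 CPM in GFP and 1067 to 1110 CPM after Ezh2-Y726D, a ratio of means of 1.61. The fold changes from edgeR, a different measure, were 1.56 for Grm8, 1.6 for Grm4 and 1.23 for Grm7. Apart from Megf10, the markers of starburst amacrine cells were too low to follow. Their summed level of 75.7 to 87.7 CPM in GFP and 74.3 to 79.3 CPM after Ezh2-Y726D was nearly all Megf10 (log2 fold change -0.08, not called), and Slc5a7 had 0.519 and 1.03 CPM (0.90, not called, edgeR's adjusted P = 0.0948). The defining genes Chat, with 10, 3 and 0 reads in GFP and 19, 11 and 12 after Ezh2-Y726D, and Slc18a3, with 6, 1 and 0 against 13, 8 and 14, did not pass the filter on low counts. The part of other cells in the changes of the members was not tested. In bulk libraries, more cells of a type and more RNA per cell cannot be told apart.

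The sorted cells were labelled RGCs, and the 10 RGC markers examined were all detected, with a summed level of 444 to 458 CPM in GFP and 434 to 473 CPM after Ezh2-Y726D. Of these 10, Pou4f1 and Thy1, the gene of the sorted antigen, were higher and none was lower at an adjusted P under 0.05. Rod markers had a far higher summed CPM, at 5659 to 5828 CPM in GFP and 6204 to 6404 CPM after Ezh2-Y726D, and Müller glia markers reached 3522 to 3860 CPM over all libraries. All 6 cone markers, all 7 T cell markers and 4 of 6 microglia markers were lower (a further one, P2ry12, was higher, with a log2 fold change of 0.33), with ratios of the summed levels of 0.651, 0.603 and 0.679. Of the markers tested, 3 of 4 for pericytes, 2 of 3 for astrocytes and 2 of 5 for endothelial cells were lower. The ratios of the summed levels of these lists were 0.792, 0.846 and 0.912. The libraries thus held RNA of several cell types beside RGCs, and the counts assign no member to any of them.

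**Figure D4:**
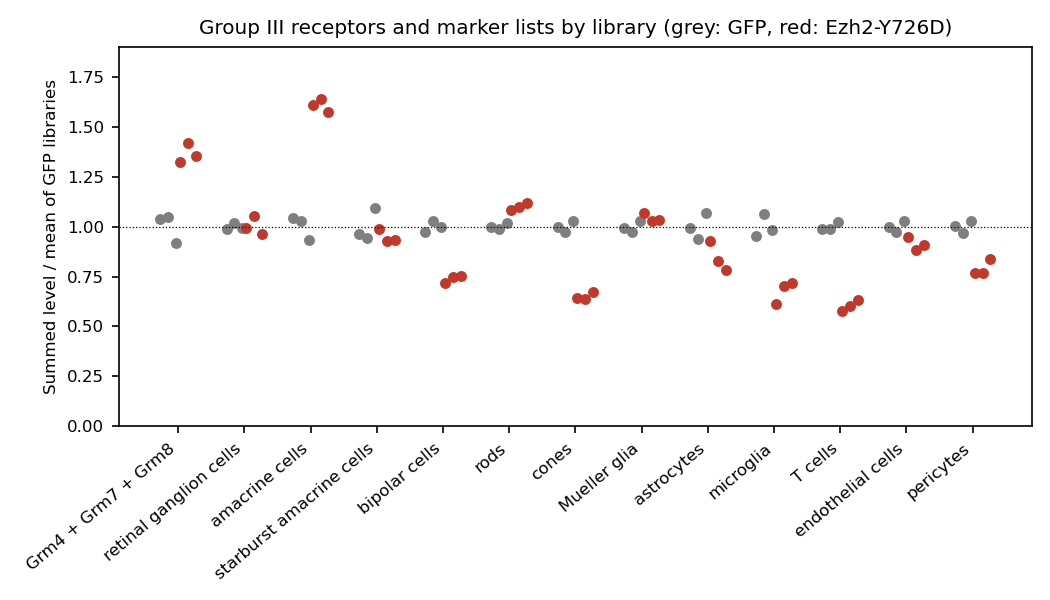
Summed level of the group III members (CPM per kb) and of the marker lists (CPM) in each library, divided by the mean of the GFP libraries (grey, GFP; red, Ezh2-Y726D; linear axis from 0). Amacrine cell markers lie above the GFP libraries together with Grm4, Grm7 and Grm8, and rod markers do so by less (ratio of means 1.1). RGC markers overlap, with a ratio of means of 1.00. Bipolar, cone, microglia, T cell, pericyte, astrocyte and endothelial cell markers lie below.

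The genes through which the receptors act were followed in lists drawn from general knowledge of the pathway. In the Gi/o arm shared by group II and III receptors, 9 of 16 genes were higher and 3 lower, with a median log2 fold change of 0.18. Kcnj6 and Kcnj3, subunits of the G protein-gated potassium channels that these receptors open, had log2 fold changes of 0.70 and 0.56. Gnai1, an inhibitory G protein subunit, was higher, with means of 23.6 ± 0.884 CPM for GFP and 37.3 ± 0.621 CPM for Ezh2-Y726D (SD, 3 libraries per group), with the same log2 fold change as Grm8, 0.64. Of the adenylyl cyclases, the enzymes that make cyclic AMP, Adcy5 and Adcy8 were both higher (0.30 each on the log2 scale). Adcy1 (0.25) and Adcy2 (0.11) were higher too, Adcy7 was lower (-0.56), and Adcy3, Adcy6 and Adcy9 did not pass the test. The isoforms Gnai2 (-0.12) and Gnai3 (-0.20), which are broadly expressed, were also lower on the log2 scale.

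In the Gq arm of the group I receptors, 6 of 12 genes were higher and 3 lower, with a median log2 fold change of 0.15. Plcb1, the phospholipase C that mGluR5 activates in many neurons, had a log2 fold change of 0.50, and the protein kinases C Prkca and Prkcb had 0.34 and 0.28. Plcb2 (-0.61), a phospholipase C of blood cells, and the inositol trisphosphate receptors Itpr3 (-0.51) and Itpr2 (-0.23) were lower on the log2 scale, whereas Itpr1 (0.18) was higher. The 2 G protein subunits differed, as Gna11 was higher by 0.19 and Gnaq, at 0.02, did not pass the test. Grm5 itself did not pass the test while these genes moved in either direction.

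Among the postsynaptic scaffolds and interactors, 5 of 8 genes were higher and 0 lower in edgeR, with a median log2 fold change of 0.29. Shank3 (0.59), Shank1 (0.46), Dlgap1 (0.43) and Homer2 (0.32), which build the scaffold that links mGluR5 to the postsynaptic density, had the largest values. Homer1, the partner best known for binding mGluR5, had a log2 fold change of -0.04 and did not pass the test. Of the presynaptic partners, Grip1 was higher by 0.41. Pick1, a PDZ protein that binds mGluR7, and Elfn1 and Elfn2, adhesion proteins that hold group III receptors in place across the synapse, had values of -0.14, -0.06 and 0.07 and did not pass.

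Genes that end receptor signalling were split. Rgs17 and Rgs8, which speed up the shutdown of Gi/o proteins, were higher with log2 fold changes of 0.78 and 0.47, as were the kinase Grk3 (0.23) and the arrestin Arrb1 (0.20). Their relatives Rgs4 (-0.29), Grk2 (-0.18) and Arrb2 (-0.29) were lower on the log2 scale, so that 4 of 8 genes were higher and 3 lower. The lists were chosen with earlier results of these data known and are no independent evidence of direction, and their counts stand beside the 13.9% and 13.6% of all genes that were higher and lower.

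**Figure D5:**
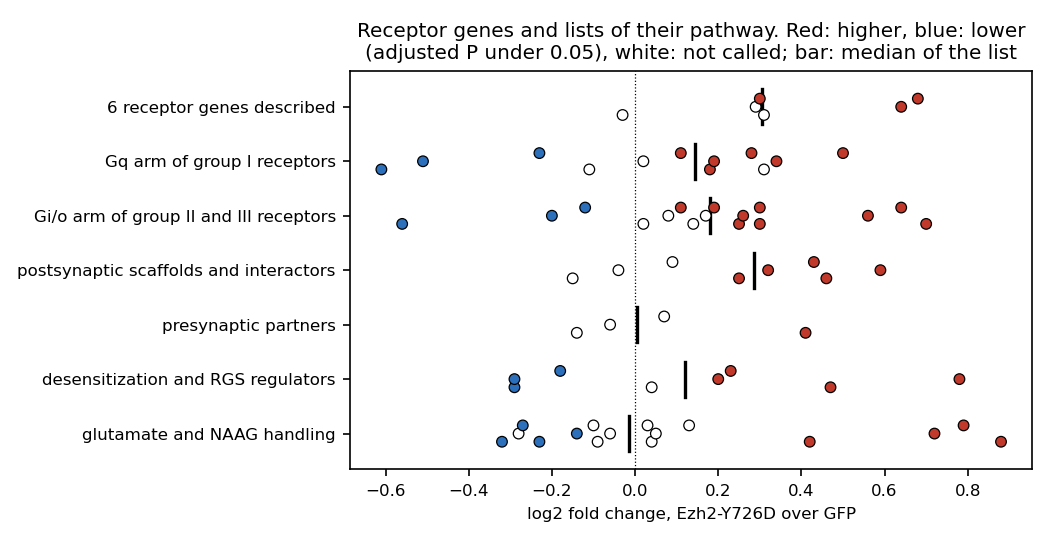
Log2 fold change, Ezh2-Y726D over GFP, of the 6 receptor genes and of each gene in 6 lists of their pathway (points; red higher, blue lower at edgeR's adjusted P under 0.05, white not called; bars are list medians). The receptors, the Gi/o arm and the scaffolds have medians of 0.30, 0.18 and 0.29. The Gq arm and the desensitization and RGS regulators have medians of 0.15 and 0.12. The presynaptic partners and the glutamate handling genes are centred near 0.

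The genes whose pattern over the 6 libraries was most like that of a higher member were found among 11778 genes by the Pearson correlation of log2 CPM, given as a description since all such genes share the libraries and the difference between the groups. For Grm8 they included Rimbp2 (r = 0.9996) and Kctd8 (0.9989). Rimbp2, an active zone protein, had means of 31.8 ± 2.02 CPM for GFP and 46.1 ± 0.627 CPM for Ezh2-Y726D (SD, 3 libraries per group). Kctd8, an auxiliary subunit of GABA(B) receptors, was at 19.8 ± 2.06 and 32.5 ± 0.438 CPM. For Grm4 they were Dcun1d4 (0.9988), Scamp5 (0.9980) and Cds2 (0.9979), whose log2 fold changes of 0.20, 0.26 and 0.26 were smaller than that of Grm4. For Grm7 they were Mical2 (0.9977), Pcp4l1 (0.9966) and Dlg4 (0.9950), with log2 fold changes of 0.37, 0.21 and 0.13. Dlg4 encodes PSD-95, the scaffold of the postsynaptic density.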

How the data were processed

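RNA-Seq counts of 6 libraries (3 GFP, 3 Ezh2-Y726D) were analysed. The counts, deposited by the authors as whole numbers for each gene and not normalized, came from stranded total RNA libraries. The submitters' processing notes name STAR 2.7.0d and GRCm38, and the counting tool, its annotation and strand setting are not given in the sources used here. Symbols were found for 32325 of 32371 identifiers in a gene name table, and coordinates and exon lengths came from GENCODE vM21 on GRCm38.

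Counts were scaled by TMM and tested with edgeR 4.0.16 in R 4.3.3 (filterByExpr with its defaults of 10 counts in a library and 15 in total, quasi-likelihood test, Benjamini-Hochberg adjustment over 18138 genes). CPM are of the TMM-scaled library size. Standard errors were derived from edgeR's F statistic. Total counts per library were 9333244 to 23782520. On simulated counts for 18138 genes of this comparison, edgeR recovered 83% of 200 genes changed by a log2 fold change of 1, with 4 false calls.

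The members and lists were chosen with earlier results of these data known. The genes named are the members, Ezh2, genes of the lists at an adjusted P under 0.05 (at most the 4 largest in each direction), the markers that moved with a member, and the 3 genes of at least 5 CPM most correlated with each member that was called, without predicted genes. Other genes of the lists, and CT010467.1, were named after their values were seen. A bipolar cell marker and a gene correlated with Grm8 are not reported here. The alternatives were RLE size factors, library totals with and without CT010467.1, thinned counts, DESeq2 1.42.0, a block for the replicate number, leaving the filter out, a stricter filter (each library at 10 counts or more), leaving out each library and a fold change over 1.5.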

Additional observations from a re-analysis of the deposited data

How the results depend on the processing

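Grm4, Grm7 and Grm8 were higher at an adjusted P under 0.05 in 13 of 14 refits, with log2 fold changes of 0.63 to 0.82, 0.24 to 0.34 and 0.61 to 0.80, and 0 members were lower in any. With 1 library left out, 3 to 4 members were higher, the fourth being Grm2 without GFP replicate 1. The exception was scaling by library totals, where 0 members passed and the median over all genes tested moved to 0.49. Relative to that median, Grm4, Grm7 and Grm8 were at 0.70, 0.31 and 0.66 and Grm5 at -0.03. Grm5 changed sign with library totals (0.46) and without GFP replicate 3 (0.01) or Ezh2-Y726D replicate 1 (0.03), and ranged from -0.07 to 0.03 with 1 library left out. Grm3 passed in 0 of 14 refits. Over all genes, edgeR called 2525 higher and 2463 lower, library totals 46 and 19, and thinned counts 1648 and 1671. With a replicate block, 3 members were higher, and 2675 and 2547 of all genes were called. Deviations of same-numbered libraries correlated at 0.07, 0.03 and 0.02, so that the numbers were not taken as pairs, although each library correlated best with its own number.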

Other observations

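Genes that supply and remove the transmitter of these receptors were looked at in a list of 16, with 4 higher and 4 lower in the Ezh2-Y726D libraries at edgeR's adjusted P under 0.05, with a median log2 fold change of -0.02. The higher genes were the neuronal glutamate transporters Slc1a6 (log2 fold change 0.88) and Slc1a1 (0.72), the glutaminase Gls2 (0.79) and the vesicular transporter Slc17a8 (0.42), which marks a class of amacrine cells. Slc1a1 had means of 43.3 ± 3.48 CPM for GFP and 72.2 ± 2.97 CPM for Ezh2-Y726D (SD, 3 libraries per group), whereas Slc1a6 was at 2.97 ± 0.498 and 5.92 ± 0.551 CPM. The lower genes were Slc17a7 (-0.27), the vesicular transporter of photoreceptors and bipolar cells, the transporters Slc1a7 (-0.32) and Slc1a3 (-0.14), and the cystine-glutamate exchanger Slc7a11 (-0.23). Slc17a6, the vesicular transporter of RGCs, was at 80.6 ± 3.82 and 81.5 ± 3.92 CPM and did not pass the test. Folh1, which cleaves NAAG, the peptide agonist of mGluR3, and the NAAG synthases Rimkla and Rimklb had values of 0.05, 0.04 and 0.13 on the log2 scale and did not pass either.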
